A study of Mus musculus with 4 samples.

Results

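The genes examined here encode the nuclear pore and the carriers that move cargo through it. They were taken from the array's gene names as Nup, Ipo or Tnpo followed by a number, Xpo followed by a number or t, and Kpna or Kpnb, and 42 of the 18193 genes on the array met that rule. A gene read by several probe sets was represented by the one with the highest mean over the 4 arrays. The rule uses names and no difference between treatments. Of the 42 genes, 41 lay above the level needed for testing and 1, the importin alpha gene Kpna7, lay below it at 4.04 to 4.20 on all 4 arrays.

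Nuclear pores are large protein channels in the nuclear envelope. A rigid scaffold of ring complexes anchors flexible nucleoporins rich in phenylalanine and glycine, and those fill the channel and let carriers through. Importins bind cargo in the cytoplasm and exportins bind it in the nucleus. The small GTPase Ran, loaded with GTP inside the nucleus, sets the direction of both. Growing lymphocytes depend on this traffic for making ribosomes, because ribosomal proteins enter the nucleus and finished subunits and tRNAs leave it.

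RNA came from T29, a mouse thymic lymphoma line described in the series' design text as lacking Ikaros. Each of the 4 samples carried MigR1-MLER, a retroviral construct with an inducible dominant-negative form of Mastermind, the co-activator that Notch needs at its target genes. They were kept for 24 h with the solvent ethanol (2 samples) or with 100 nM 4OHT (2 samples), a tamoxifen metabolite that switches on proteins fused to an oestrogen receptor domain. All samples are of 1 cell line, and none without the construct was analysed here. Whether replicates were grown as separate cultures is not in the labels, so a p-value reflects how far these particular samples differ, and that difference could be technical. The comparison asks which genes respond when Notch-dependent transcription is blocked.

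Values are RMA expression values on a log2 scale, so a difference of 1 is a 2-fold change. They compare 1 probe set across arrays and do not rank genes by abundance. Across the 11581 genes tested, Pearson's r was 0.995 within each treatment and 0.983 to 0.987 between treatments. The Notch target Dtx1, a ubiquitin ligase gene, fell from 9.42 ± 0.01 to 6.01 ± 0.00 (mean ± SD, n = 2 each; limma adjusted p = 0.000506), as did the Notch target Hes1, a repressor gene, from 8.64 ± 0.18 to 7.25 ± 0.07 (limma adjusted p = 0.00945). Myc, which encodes a transcription factor that drives cell growth, fell from 11.78 ± 0.22 to 11.04 ± 0.11 (limma adjusted p = 0.0358). T-cell markers were present, with 7 of the 8 listed genes read by a probe set naming 1 gene and means between 7.64 and 12.98; 2 of them rose (Ptprc and Cd8a) and 1 fell (Cd3g). B-cell, myeloid and erythroid markers had means between 3.61 and 6.17. Among 6 stromal, epithelial and endothelial markers the highest mean was that of Pdgfrb, at 8.50. The mean log2 level of that list was 5.14 and 5.09 in the ethanol samples against 4.92 and 5.04 in the 4OHT samples. The difference between the 3′ and 5′ probe sets of 18S ribosomal RNA, a measure of RNA quality, moved with treatment, reading 0.05 and 0.32 in ethanol samples against 0.90 and 0.82 in 4OHT samples, while that of Actb ran from 0.40 to 0.49. The part of either in the results was not tested.

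After 24 h of 4OHT most transport genes stood slightly under their ethanol level. Only Ipo5, an import receptor for ribosomal proteins and histones, passed the test across all genes, with a 1.44-fold fall. With any 1 of the 4 arrays left out its change stayed between -0.57 and -0.48. The call was then lost, as most calls over all genes were. A fit with 1 array in a group therefore cannot show whether the call was stable. No transport gene passed as higher. That is 1 of 41 genes tested lower, or 2.44%, against 3.57% of all genes tested called lower, and 0 of 41 higher against 3.9%. The calls are limma's at a Benjamini-Hochberg adjusted p under 0.05. At an unadjusted limma p under 0.05, 12 transport genes (29.3%) were lower and none was higher, against 13.2% and 12.3% of all genes tested. By the strict call in this fit, then, these genes were not called more often than the array as a whole. That comparison rests on 1 call and moved with the settings. The lower share was 14.6% against 5.49% with an intensity trend, and 0 against 1.59% with every probe set as its own row.

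Most transport genes had a change of the same sign. A change below 0 was seen in 35 of the 41 genes, or 85.4%, against 52.3% of all genes tested. The median log2 change was -0.13 for transport genes and -0.01 for all genes tested. In 19 of the 41 genes both 4OHT values lay under both ethanol values, and in 1 gene, Xpo1, both lay above. Over all genes tested the same was true of 30.2% and 26.7%. Quantile normalization or median centring left 35 and 36 genes below 0. With 1 array left out fewer values need to be separate, so the count of 19 can only stay or rise, and it was 29 without ethanol replicate 1. Leaving out ethanol replicate 2 or 4OHT replicate 1 lowered the count below 0 to 29 in each case. The shares over all genes in those fits are not reported, so these counts cannot be set beside the whole array.

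**Figure D1:**
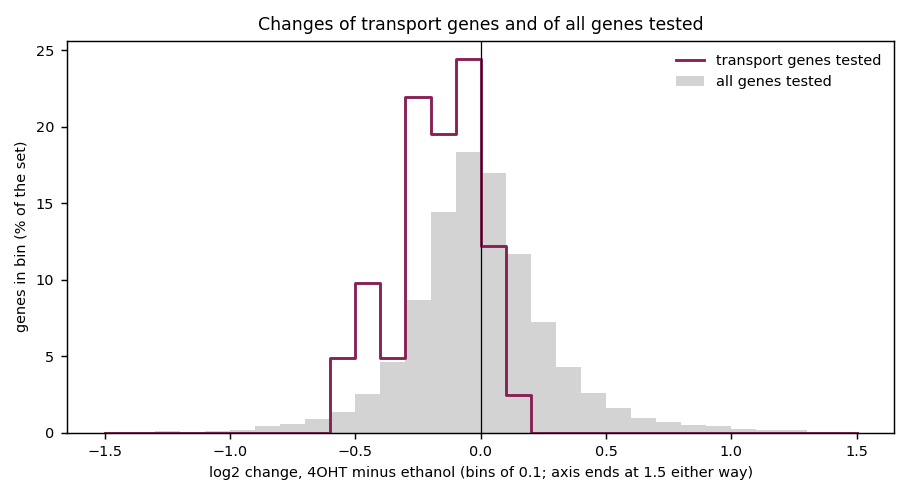
Share of genes (% of the set, y axis) in each 0.1 bin of log2 change, 4OHT minus ethanol (x axis, drawn from -1.5 to 1.5), for the 11581 genes tested (grey bars) and the 41 transport genes tested (line). The line is shifted to the left of the bars, with a median of -0.13 against -0.01, and ends at -0.53 and 0.18.

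The sizes were modest throughout. With the probe set used for each gene, no transport gene reached a 1.5-fold change in either direction, with changes from -0.53 (Xpot) to 0.18 (Tnpo2). For 34 of the 41 genes the 95% interval of the change, taken from the limma fit and not adjusted for the number of genes, lay wholly within 1.5-fold either way, against 75.3% of all genes tested. The other 7 intervals reached past a 1.5-fold fall and none past a 1.5-fold rise. In 27 of the 41 genes the 2 replicates of at least 1 treatment differed by more than the treatments did. That is a larger share than the 6418 of all 11581 genes tested.

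**Figure D2:**
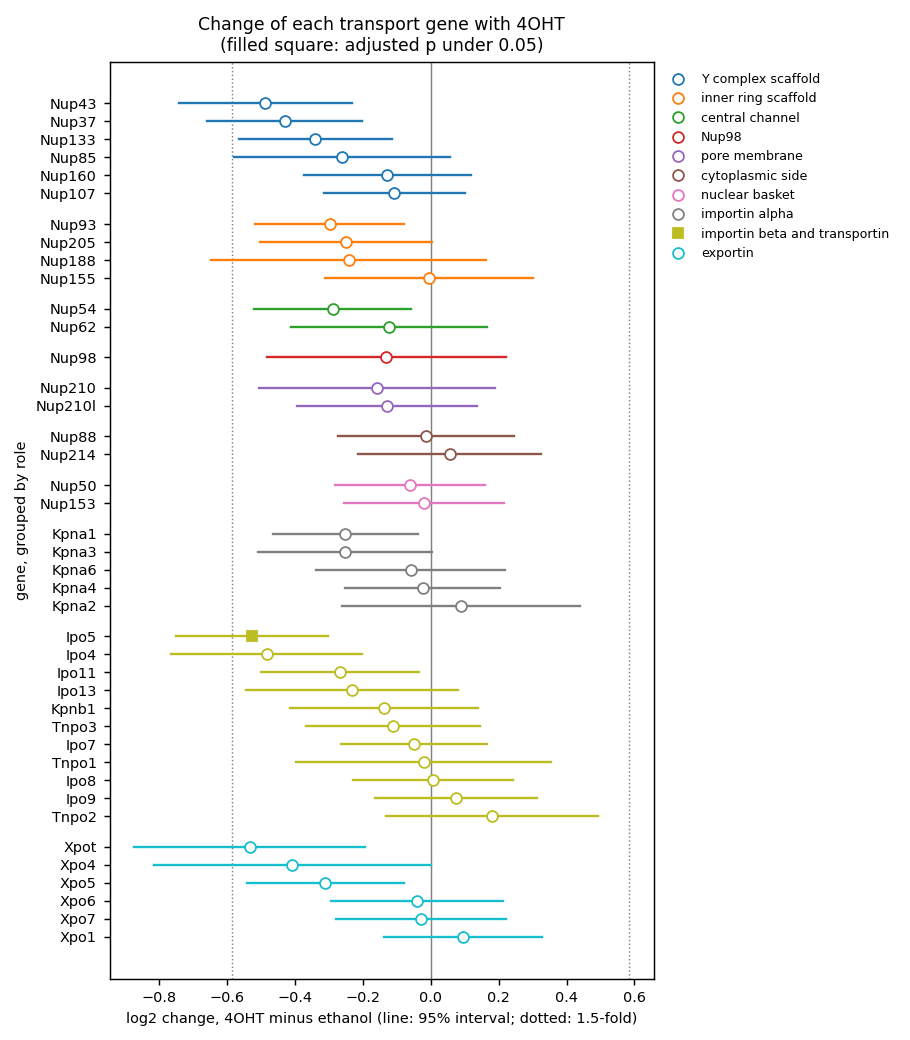
Log2 change, 4OHT minus ethanol (x axis), of the 41 transport genes tested, grouped by role (y axis); points are the difference of means of 2 arrays each, lines the 95% interval and dotted lines a 1.5-fold change. Ipo5 alone carries a filled square (adjusted p = 0.0315 in limma), and 35 of the 41 points lie left of 0.

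The promoters of the genes at the ends of this range are shown because Myc fell with 4OHT and binds the E-box CACGTG, and because RBPJ, the DNA-binding partner of Notch, binds a core of TGGGAA. Each window runs from 250 bases before to 50 bases after a RefSeq start site on GRCm38.p6, 5′ to 3′ along the gene, with either motif in capitals on whichever strand it was found. The 4 genes with a window and the lowest changes and the 1 with the highest change were chosen after their values were seen, at their most upstream start. They lie at chr10:121626283-121626582 (minus strand) for Xpot, chr14:120910944-120911243 (plus strand) for Ipo5, chr14:55635635-55635934 (minus strand) for Ipo4, chr10:88146742-88147041 (plus strand) for Nup37 and chr8:85036643-85036942 (plus strand) for Tnpo2.
Xpot: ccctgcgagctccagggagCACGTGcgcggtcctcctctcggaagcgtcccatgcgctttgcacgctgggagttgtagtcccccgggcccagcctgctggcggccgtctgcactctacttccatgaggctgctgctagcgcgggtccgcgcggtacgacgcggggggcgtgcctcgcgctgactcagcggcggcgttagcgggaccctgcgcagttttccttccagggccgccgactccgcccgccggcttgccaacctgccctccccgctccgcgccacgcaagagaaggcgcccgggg
Ipo5: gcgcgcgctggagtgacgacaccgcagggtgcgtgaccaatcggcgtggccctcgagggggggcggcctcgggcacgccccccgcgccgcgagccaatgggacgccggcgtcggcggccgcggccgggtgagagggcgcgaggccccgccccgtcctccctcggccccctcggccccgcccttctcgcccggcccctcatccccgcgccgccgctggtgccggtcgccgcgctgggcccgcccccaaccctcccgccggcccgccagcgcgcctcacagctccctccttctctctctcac
Ipo4: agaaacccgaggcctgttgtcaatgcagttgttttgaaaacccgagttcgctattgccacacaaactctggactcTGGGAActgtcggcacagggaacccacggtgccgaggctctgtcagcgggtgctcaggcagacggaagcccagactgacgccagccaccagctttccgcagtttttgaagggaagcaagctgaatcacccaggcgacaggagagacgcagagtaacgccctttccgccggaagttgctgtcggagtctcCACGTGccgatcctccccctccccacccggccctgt
Nup37: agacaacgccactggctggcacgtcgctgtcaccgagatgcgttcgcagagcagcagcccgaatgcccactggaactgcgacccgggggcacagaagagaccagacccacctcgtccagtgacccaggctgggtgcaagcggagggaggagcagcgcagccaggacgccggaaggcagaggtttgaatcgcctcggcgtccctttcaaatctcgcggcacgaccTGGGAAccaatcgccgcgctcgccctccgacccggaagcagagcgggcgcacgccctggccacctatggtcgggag
Tnpo2: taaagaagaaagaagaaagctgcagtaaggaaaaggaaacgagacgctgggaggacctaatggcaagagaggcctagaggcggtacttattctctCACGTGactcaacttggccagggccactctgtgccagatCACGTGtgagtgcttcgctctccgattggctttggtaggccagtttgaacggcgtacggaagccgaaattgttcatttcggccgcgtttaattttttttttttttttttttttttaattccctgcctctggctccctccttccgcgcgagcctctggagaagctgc

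Counted from the start site, the Xpot window holds 1 E-box at -231, and the Ipo4 window holds 1 E-box at 14 and 1 RBPJ core at -175. The Ipo5 window has neither motif. Nup37 has 1 RBPJ core at -26. Tnpo2, whose change was the highest at 0.18, carries 2 E-boxes, at -155 and -116. Among the 33 tested transport genes with a window, 7 held an E-box (21.2%), against 11.6% of 9402 tested genes with one, and 8 held an RBPJ core (24.2%), against 26.6%. Matches on either strand were counted. The median log2 change was -0.29 for the 7 with an E-box and -0.11 for the 26 without, with ranges of -0.53 to 0.18 and -0.53 to 0.09. The split by RBPJ core was similar, with a median of -0.28 for the 8 with it (range -0.48 to -0.02). The median was -0.11 for the 25 without it (range -0.53 to 0.18). Ipo4, Ipo7 and Nup93 held both motifs, so these splits share genes. No E-box shared bases with an RBPJ core. Such splits over all genes tested are not reported here. These are letter matches and do not show binding. Transport gene windows were also richer in G and C, with a median of 64.3% against 60.7% for tested genes. Base composition can alter how often such motifs occur, and its part in these shares was not tested.

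Import receptors of the importin beta family held the called gene. Ipo5 read 11.43 and 11.52 with ethanol and 10.91 and 10.99 with 4OHT. The 2 groups were separated by more than 0.4 while replicates within each lay within 0.1. It fell by 0.53 ± 0.09 (log2 change ± SE; 95% interval -0.75 to -0.30; limma adjusted p = 0.0315). Its second probe set above the testing level gave -0.44. With any 1 of the 4 arrays left out, the change stayed between -0.57 and -0.48. The call was lost in those fits, as most calls over all genes were. On all 4 arrays it was lost with the mean of all the gene's probe sets (limma adjusted p = 0.0532). That mean included a probe set below the testing level, which read 4.47 on average. The same held with every probe set adjusted as its own row (limma adjusted p = 0.052).

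Ipo4, another importin that carries histones, had the next lowest change among the import receptors. It read 9.48 and 9.32 with ethanol and 9.01 and 8.82 with 4OHT, a change of -0.48 ± 0.11 that did not pass (limma adjusted p = 0.0641). Its other probe set gave -0.41. The groups were separate for Ipo4, as they were for Ipo11, an importer of ubiquitin-conjugating enzymes (-0.27), for Ipo13, a carrier that works in both directions (-0.23), and for Tnpo3, the importin of SR splicing factors (-0.11). Without ethanol replicate 2 the change was -0.08 for Ipo13 and -0.01 for Tnpo3.

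The other 6 genes of this class had overlapping groups. Separate lower groups were thus seen in 5 of its 11 genes, against 30.2% of all genes tested. Kpnb1, importin beta itself, is the main import receptor and works with the importin alpha adaptors. It read 11.94 and 11.90 with ethanol and 11.66 and 11.90 with 4OHT. With the probe set used, only 1 of the 4OHT arrays was low. Its change was -0.14, with a 95% interval of -0.41 to 0.14, and its 4 probe sets ran from -0.18 to -0.06. The probe set at -0.18 read 11.25 and 11.39 with ethanol and 11.15 and 11.13 with 4OHT, so its groups were separate. The groups of the remaining Kpnb1 probe sets overlapped. Ipo7, a partner of importin beta in the import of ribosomal proteins and linker histone, changed by -0.05 (95% interval -0.26 to 0.17). Ipo8, its close relative, stood at 0.01 (-0.23 to 0.24) and Ipo9, a histone importer, at 0.07 (-0.17 to 0.31).

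The transportins recognise the signals of many RNA-binding proteins. Tnpo1 read 10.84 and 11.00 with ethanol against 10.71 and 11.09 with 4OHT, and the lowest and the highest value were both on 4OHT arrays. Its second probe set gave -0.31 beside -0.02 for the one used. Tnpo2 read 8.29 and 8.60 with ethanol and 8.60 and 8.66 with 4OHT. With that probe set 1 ethanol array was low and the other 3 lay close together. A second Tnpo2 probe set read 8.10 and 8.30 with ethanol and 8.40 and 8.37 with 4OHT, a change of 0.18 with separate groups. The remaining Tnpo2 probe set gave -0.02. Of the 11 import receptors in this class, 8 had a change below 0 and 3 above.

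**Figure D3:**
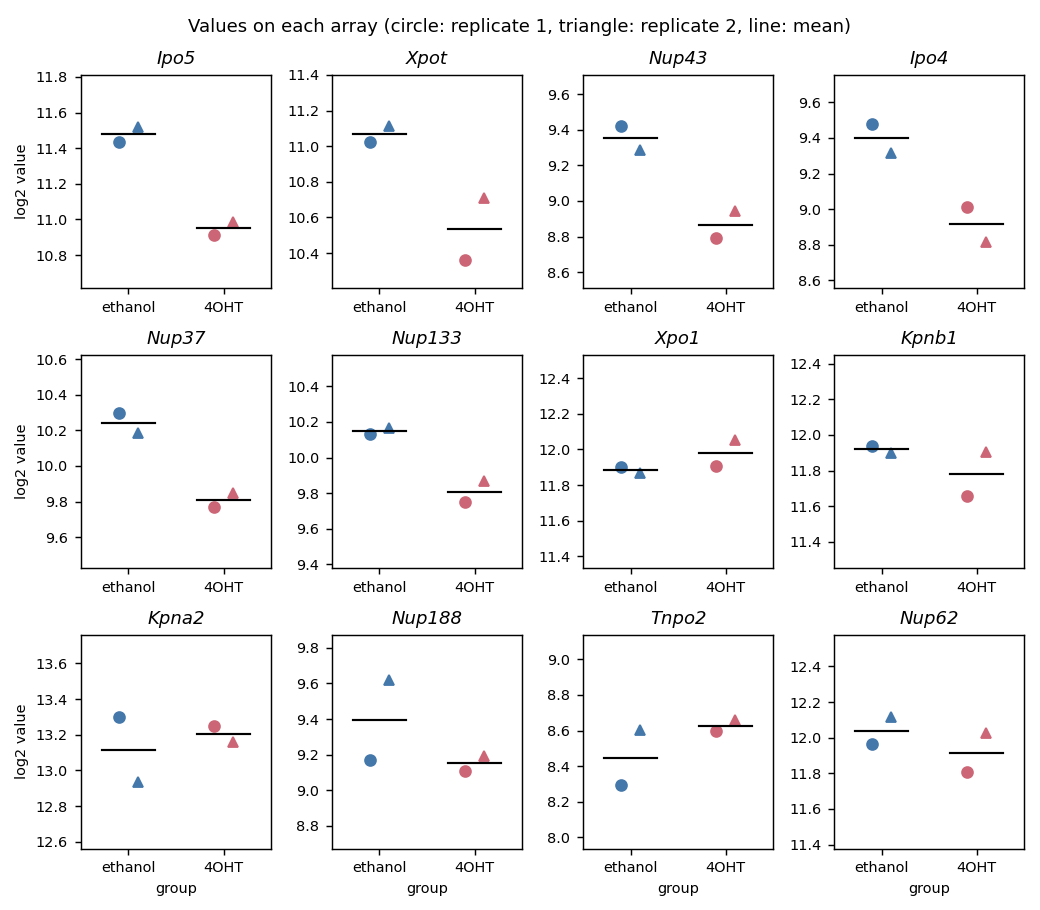
Log2 value (y axis) of 12 transport genes on each array, by treatment (x axis); circles are replicate 1, triangles replicate 2 and bars the mean of the 2 arrays. Every panel spans the same 1.2 log2 units. Ipo5 and the other genes with the lowest changes have no overlap between treatments, while Kpna2 and Nup188 differ most between the 2 ethanol arrays.

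The importin alpha genes, whose products link cargo with a classical import signal to importin beta, gave no call among 5 tested. Kpna1 read 9.24 and 9.20 with ethanol and 8.93 and 9.00 with 4OHT. Both 4OHT values were lower, the change was -0.25 ± 0.09, and it did not pass (limma adjusted p = 0.143). All 5 Kpna1 probe sets above the testing level lay between -0.30 and -0.23. Kpna3 had a similar change of -0.25, with its 3 probe sets from -0.27 to -0.19. With the probe sets used, Kpna4 (-0.02) and Kpna6 (-0.06) had overlapping groups. The other Kpna6 probe set, with a mean of 5.88, gave -0.33 with separate groups. The other Kpna4 probe set gave 0.05. Kpna2, the importin alpha most tied to proliferation, read 13.30 and 12.93 with ethanol and 13.25 and 13.16 with 4OHT. Its ethanol replicates were farther apart than the treatments, and its 95% interval ran from -0.26 to 0.44.

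Cse1l, the exportin that returns importin alpha to the cytoplasm, lies outside the naming rule and was on the list of related genes. It read 11.34 and 11.26 with ethanol and 11.03 and 11.09 with 4OHT. The groups were separate, with a change of -0.24 ± 0.09 that did not pass (limma adjusted p = 0.167).

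None of the 6 exportin genes passed the test. Both 4OHT values lay under both ethanol values in 3 of them, against 30.2% of all genes tested. Xpot, which carries tRNAs out of the nucleus, had the lowest change of all 41 genes. It read 11.02 and 11.11 with ethanol and 10.36 and 10.71 with 4OHT, and both 4OHT values were lower. The 4OHT replicates were farther apart than the ethanol ones, which widened the error (-0.53 ± 0.14, limma adjusted p = 0.0801). Its 3 probe sets above the testing level gave -0.53, -0.56 and -0.60, the last of which is past 1.5-fold.

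Xpo5, the exporter of microRNA precursors, read 10.20 and 10.24 with ethanol and 9.98 and 9.85 with 4OHT, a separate pair of groups with a change of -0.31 ± 0.09 (limma adjusted p = 0.108). Its other probe set gave -0.41. Xpo4, a carrier of the translation factor eIF5A, read 8.08 and 8.09 with ethanol and 7.44 and 7.91 with 4OHT. That change of -0.41 rested largely on 1 array, and the gene's other probe sets above the testing level gave 0.06 and 0.36. With the mean of its probe sets the change was 0.01.

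Xpo1, the main protein exporter, which recognises leucine-rich export signals and also serves ribosomal subunits, read 11.90 and 11.87 with ethanol and 11.91 and 12.05 with 4OHT. It was the 1 gene of the 41 with both 4OHT values above both ethanol values, by a change of 0.09 (95% interval -0.14 to 0.33; limma adjusted p = 0.572). Xpo6, the exporter of actin, and Xpo7 had overlapping groups and changes of -0.04 and -0.03.

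Nucleoporins gave no call either, among 19 tested, but 18 of them had a change below 0. The Y complex is the outer ring scaffold of the pore. The 6 of its genes that met the naming rule all had a change below 0. In each of the 6, both 4OHT values lay under both ethanol values, as they did in 30.2% of all genes tested. Their changes ran from -0.49 to -0.11, with a median of -0.30. Outside the naming rule, the Y complex genes Sec13 (-0.14) and Seh1l (-0.07) were also below 0, but the groups of Seh1l overlapped. Nup43 read 9.42 and 9.29 with ethanol and 8.79 and 8.94 with 4OHT (-0.49 ± 0.10, limma adjusted p = 0.0503). Nup37 read 10.29 and 10.19 against 9.77 and 9.85 (-0.43 ± 0.09, limma adjusted p = 0.0526). Both lay just outside the threshold, and their products are peripheral members of the complex.

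Nup133 and Nup160 are large subunits of its core. Nup133 read 10.13 and 10.17 with ethanol and 9.75 and 9.87 with 4OHT (-0.34 ± 0.09, limma adjusted p = 0.0857). Of its 6 probe sets above the testing level, 5 lay between -0.34 and -0.15. The remaining 1 stood at 0.12, and its mean of 4.85 was close to the testing level. Nup160 (-0.13) and Nup107 (-0.11) had separate groups but small changes, with 95% intervals that reached above 0. Nup85 read 10.71 and 10.65 with ethanol against 10.57 and 10.26 with 4OHT. With that probe set the change of -0.26 rested mostly on 1 array. The other Nup85 probe set read 10.35 and 10.07 against 9.97 and 9.74, a change of -0.35 with separate groups. A 10% threshold on the adjusted p took in Ipo5, Ipo4, Nup43, Nup37, Nup133 and Xpot, 6 of the 41 genes (14.6%) against 7.12% of all genes tested.

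Inner ring genes, whose products join the scaffold to the central channel, were 4 in number, all below 0. Nup93, which anchors the channel proteins, read 10.03 and 10.08 with ethanol and 9.71 and 9.80 with 4OHT. The groups were separate, with a change of -0.30 ± 0.09 that did not pass (limma adjusted p = 0.105). Nup205 also had separate groups (-0.25). Nup188, its paralogue, read 9.17 and 9.62 with ethanol and 9.11 and 9.19 with 4OHT. The high value of ethanol replicate 2 carried that difference. Nup155 had a change of -0.01, with values from 9.50 to 9.74 in both treatments.

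Central channel genes encode the phenylalanine-glycine barrier. Nup54 read 10.01 and 10.07 with ethanol and 9.68 and 9.81 with 4OHT, a separate pair of groups (-0.29 ± 0.09, limma adjusted p = 0.127), and all 5 of its probe sets above the testing level lay between -0.35 and -0.23. Nup62, which binds Nup54 in the same complex, had overlapping groups and a change of -0.12. Its 5 probe sets were all below 0. Nupl1, which encodes the third protein of that complex and is on the list of related genes, changed by -0.22 (limma adjusted p = 0.226).

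None of the 7 genes tested under the naming rule for the rest of the pore had separate groups. Among all genes tested, 30.2% had separate lower groups and 26.7% separate higher ones. On the cytoplasmic side, where cargo docks and mRNA is released, Nup214 read 9.41 and 9.64 with ethanol and 9.56 and 9.61 with 4OHT, and Nup88, its partner, stood at -0.01. In the nuclear basket, Nup50 read 10.45 and 10.36 against 10.37 and 10.32, and Nup153 changed by -0.02. Another Nup153 probe set gave -0.41. The mobile nucleoporin Nup98 read 9.15 and 9.53 with ethanol and 9.24 and 9.18 with 4OHT, and the membrane-spanning Nup210 read 9.89 and 10.25 against 9.95 and 9.87. For both of these genes, leaving out ethanol replicate 2 turned the change above 0, to 0.06 for Nup98 and 0.02 for Nup210. Nup210l, a relative of Nup210 known from the germ line, was at -0.13 (limma adjusted p = 0.493).

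**Figure D4:**
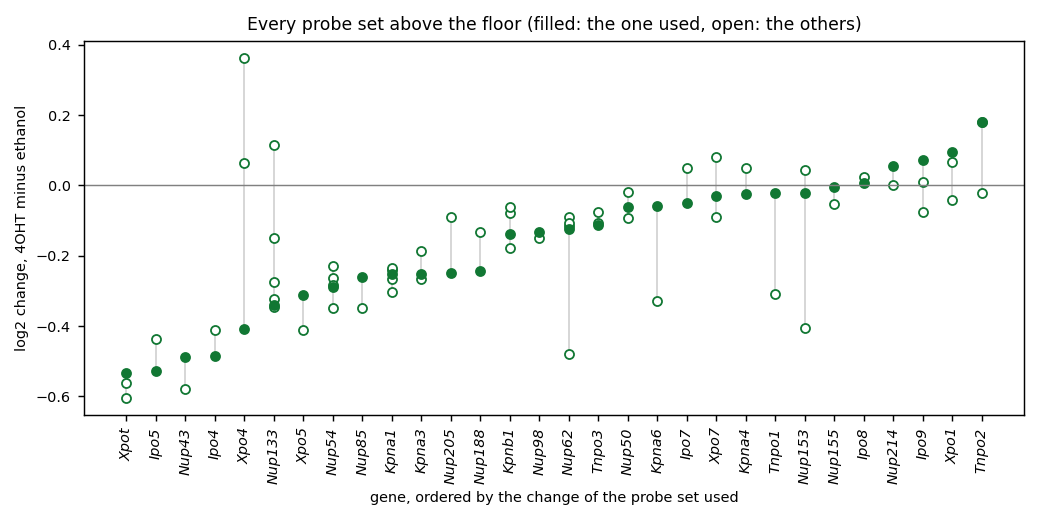
Log2 change, 4OHT minus ethanol (y axis), of every probe set above the testing level for the 30 transport genes with at least 2 (x axis, ordered by the probe set used); filled points are the probe sets used and open points the others. In 21 genes all probe sets share a sign and in 9 they do not, and Xpo4 has the widest spread.

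Agreement between probe sets of a gene was a further measure of how firm these small changes were. The 42 genes had 111 probe sets, of which 96 lay above the testing level, and 30 genes had at least 2 of them. All probe sets of a gene shared a sign in 21 genes. The range between a gene's lowest and highest change had a median of 0.10, close to the size of a typical change itself (median size 0.13). Xpot, Ipo5, Nup43, Ipo4, Xpo5, Nup54, Kpna1 and Kpna3 were among those with 1 sign. Ipo7, Ipo9, Kpna4, Nup133, Nup153, Tnpo2, Xpo1, Xpo4 and Xpo7 were mixed. In Nup133, Nup153 and Xpo1 the 1 probe set of opposite sign lay near the testing level of 4.81, with means of 4.85, 4.81 and 4.99. In the other mixed genes, every probe set above that level had a mean of 5.54 or more. Probe sets of 1 gene can overlap in sequence and are read on the same arrays, so they are not independent replicates.

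Related transport genes outside the naming rule gave similar counts. The list held 34 genes for other pore proteins, the Ran cycle, further carriers and export adaptors. On the array 31 had a probe set naming 1 gene and 30 were tested. Of these 30, 1 fell and none rose, against 3.57% and 3.9% of all genes tested. A change below 0 was seen in 23, against 52.3% of all genes tested, and the median was -0.12. The gene that fell was Rangrf, whose product binds Ran and promotes release of its nucleotide. It read 8.81 and 8.96 with ethanol and 7.70 and 8.14 with 4OHT, so that both 4OHT values were lower. That was a 1.95-fold fall, of 0.96 ± 0.16 on the log2 scale (limma adjusted p = 0.0311). With 1 array left out the change ran from -1.18 to -0.74. The call was lost in those fits, as most calls over all genes were.

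Ran itself did not pass the test. It read 13.56 and 13.46 with ethanol and 13.43 and 13.41 with 4OHT, a change of -0.09 (95% interval -0.31 to 0.13) with separate groups. Its regulators Ranbp1 and Rcc1 also had separate groups without passing. Ranbp1, which helps GTP hydrolysis on Ran, was at -0.33 ± 0.08 (limma adjusted p = 0.0774) and Rcc1, the exchange factor that loads Ran with GTP, at -0.39 ± 0.12 (limma adjusted p = 0.108). The groups of Rangap1 (-0.17) and Ranbp3 (-0.04) overlapped. Separate lower groups were thus seen in 4 of the 6 tested Ran cycle genes, against 30.2% of all genes tested. All 6 had a change below 0, against 52.3% of all genes tested.

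Among the other pore proteins, 9 of 11 had a change below 0 and none passed. Ranbp2, the large docking protein of the cytoplasmic filaments, read 10.14 and 10.20 with ethanol and 10.11 and 10.27 with 4OHT, and its groups overlapped. Ndc1, a membrane anchor of the pore, read 9.06 and 8.94 with ethanol against 8.53 and 8.83 with 4OHT, at a change of -0.32 (limma adjusted p = 0.196). Rae1, an mRNA export factor that binds Nup98, stood at -0.25 (limma adjusted p = 0.158). Sec13 and Seh1l, Y complex subunits named outside the rule, were at -0.14 and -0.07. Groups were separate for Sec13 and overlapped for Seh1l. Ahctf1 stood at 0.01, with both 4OHT values slightly above both ethanol values.

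Of 11 export and import adaptors tested, 7 had a change below 0 and none passed. Nmd3, which links the large ribosomal subunit to Xpo1, read 9.87 and 9.81 with ethanol and 9.45 and 9.50 with 4OHT, a separate pair of groups (-0.37 ± 0.09, limma adjusted p = 0.0631). The main mRNA exporter gene Nxf1 was at 0.02 with overlapping groups (95% interval -0.19 to 0.23), and its partner Nxt1 at -0.09. Ddx19b, a helicase that releases mRNA at the cytoplasmic face, had both 4OHT values above both ethanol values (0.23, limma adjusted p = 0.321). Ranbp6, an importin beta relative of Ipo5, also had both 4OHT values above (0.24, limma adjusted p = 0.239). Tpr, Nutf2 and Ddx19a were not analysed here.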

How the data were processed

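RNA was measured on 4 Affymetrix arrays of T29 cells. The authors deposited 1 log2 value for each probe set and array; per the submitters' processing notes these come from RMA, with no version named. RMA gives no depth, so the number of arrays limits the precision. The log2 scale was read from the values, 2.25 to 14.6.

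The platform annotation named 1 gene for 34945 of 45101 probe sets. The rule took the members as symbols starting Nup, Ipo or Tnpo and a number, Xpo and a number or t, or Kpna or Kpnb. All 42 matched a RefSeq gene (GRCm38.p6) under the same symbol, and 34 had a promoter window. Each gene was read by its probe set with the highest mean. Testing required a mean of at least 4.81, the 40th percentile over named probe sets. The model was fitted to the 4 arrays in limma 3.58.1 (R 4.3.3) without a block. P-values were adjusted by Benjamini-Hochberg across 11581 genes, and 0.05 was the threshold. The fit was tested on simulated data, with recovery required only for changes far larger than those of the transport genes. Recovery of changes of the size seen here is not reported. The members and lists were chosen with earlier results of these data known. By a separate display rule, which uses the results, array values are given for each called member, for the largest change in each role without a call, for called related genes and for Ran, Cse1l and Ranbp2, with at most 12 related genes by size of change. Other genes given by array, Nxf1, Nxt1, Sec13, Seh1l and Ahctf1 were chosen after their values were seen.

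Alternatives were other filters, quantile normalization, median centring, a replicate block, leaving out each array, other choices of probe set, an intensity trend and other thresholds. Means over a gene's probe sets took in those below the testing level. Counts of changes below 0 and of separate groups were added after seeing the data.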

Additional observations from a re-analysis of the deposited data

How the results depend on the processing

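The number of transport genes called lower was 1 and moved with most settings, as did calls over all genes, while 0 were called higher in all 16 alternatives. It was 4 with a filter at the 60th percentile (10% of transport genes against 6.08% of all genes), 2 with quantile normalization (4.88% against 3.93%), 4 with probe sets averaged per gene (9.76% against 3.33%), 2 without _x_at and _s_at probe sets (5% against 3.15%) and 0 with all probe sets as separate rows (1.59% of all rows). It was 6 with an intensity trend (14.6% against 5.49%), 6 with a trend and robust prior (14.6% against 5.75%), 6 at an adjusted p under 0.10 (14.6% against 7.12%) and 0 at 1.5-fold or more (1.93% of all genes). Leaving out 1 array gave 0 calls in each of 4 fits, with 0.104% to 0.57% of all genes called lower. Genes with separate lower groups then numbered 22 to 29 against 19, a rule that 3 arrays meet more easily by construction. The share of all genes meeting that rule in those fits is not reported. Related genes called lower were 1, then 2 at the 60th percentile, 3 with a trend, 3 with a trend and robust prior, 3 at an adjusted p under 0.10 and 0 without any 1 array. With the replicate number as a block, 7 transport genes (17.1% against 8.9% of all genes) and 4 related genes were called lower; same-numbered arrays deviated from their group means together (r = 0.34 over 11581 genes), but the labels give no pairing and 2 pairs cannot establish one. The median change kept its sign throughout, from -0.20 to -0.09. Single changes turned sign 24 times, in 14 genes that were not called. The cause of these shifts was not tested.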
